A study of Saccharomyces cerevisiae with 20 samples.

Results

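Guanine nucleotide synthesis and purine salvage were followed in *Saccharomyces cerevisiae* through 7 genes, IMD2, IMD3, IMD4, GUA1, AAH1, APT1 and HPT1, of 5778 genes with a mean level in the deposited comparison tables. They were chosen by name, as a list, because the translation efficiency (ribosome footprints per mRNA) of IMD4 and AAH1 fell in the study's own comparison of strains and temperatures. That comparison is not reported here, and differences with temperature or strain are given below only as a description. The strains were BY4741 cells that carried at the native locus, introduced with a HIS3 plasmid, either cdc33-ts4-2, a temperature-sensitive allele of the gene for the cap-binding factor eIF4E, or, in the controls, the wild-type CDC33 sequence from the same plasmid. All cells were grown in rich medium (YPD) at 25°C and then kept for 1 h at 37°C or 25°C. The study's immunoblots showed less eIF4E in cdc33-ts4-2 cells already at 25°C, which limits that group as a model of unaffected cells. Ribosome profiling, which sequences the mRNA fragments that ribosomes shield from nuclease, covered 2 samples of each strain and temperature (8 in all), and RNA-seq of poly(A)-selected mRNA covered 3 (12 in all). The study describes them as biological duplicates and triplicates. According to the paper, the ribosome-profiling reads lacked the usual spread of footprint lengths and favoured no reading frame. Incomplete nuclease digestion is named there as a possible reason. The authors still took these reads as ribosome-protected, judging by where they fell along genes. All footprint results below rest on that view, which was not tested here.

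Guanine nucleotides branch from IMP, the first complete purine nucleotide. IMP dehydrogenase, encoded in yeast by the IMD genes, oxidises IMP to XMP and is the rate-limiting step of the branch, and GMP synthase (GUA1) turns XMP into GMP. Salvage enzymes recover free bases instead: adenine deaminase (AAH1) makes hypoxanthine from adenine, adenine phosphoribosyltransferase (APT1) makes AMP from adenine, and hypoxanthine-guanine phosphoribosyltransferase (HPT1) makes IMP and GMP from hypoxanthine and guanine. IMD2 is known for its strong induction when guanine nucleotides run low. A translating ribosome covers the coding sequence, and footprints upstream of it in the 5′ UTR (the leader) are read as ribosomes on the leader, for example on upstream open reading frames (uORFs).

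The 7 genes lie on 5 chromosomes of genome build R64 and are all protein coding. IMD2 (YHR216W) is at chrVIII:554396-555967 on the plus strand, IMD3 (YLR432W) at chrXII:1002557-1004128 plus, IMD4 (YML056C) at chrXIII:162194-164176 minus, GUA1 (YMR217W) at chrXIII:701790-703367 plus, AAH1 (YNL141W) at chrXIV:359596-360639 plus, APT1 (YML022W) at chrXIII:228937-229500 plus and HPT1 (YDR399W) at chrIV:1270068-1270733 plus. These spans run from start to stop codon, and only IMD4 has an intron. The leader lengths listed by the authors are 203 nt for IMD4, 157 nt for IMD3, 126 nt for GUA1, 106 nt for IMD2, 85 nt for AAH1, 69 nt for HPT1 and 22 nt for APT1. IMD4 is listed with 4 uORFs and the other 6 members with 0. Among the 869 genes with a listed count, 10.7% have at least 1 uORF and 2.19% have 4 or more. The count is not a count of AUG codons: read from the RefSeq genome, the IMD4 leader holds 2 AUGs and the other members' leaders hold 0, while 47.0% of 868 leaders hold at least 1. Both IMD4 AUGs are in frame with the start codon and meet a stop inside the leader.

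The surroundings of the start codons (RefSeq, build R64, start codon in capitals) are shown because leader footprints are measured just upstream of them. IMD2 and IMD3 have the same 15 bases here, IMD4 does not.
IMD2: aaagcaATGgccgcc
IMD3: aaagcaATGgccgcc
IMD4: tttacgATGagtgct
GUA1: ttcacaATGgctgcc
AAH1: aaaataATGgtttct
APT1: ctaatcATGtctata
HPT1: cccataATGtcggca
The 2 AUGs of the IMD4 leader start 168 and 99 nt upstream of the start codon and open frames of 36 and 13 sense codons. Their surroundings, with the AUG in capitals, are the following.
IMD4 leader AUG 1: caaatcATGcttggc
IMD4 leader AUG 2: gaaaaaATGgtggct

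The IMD genes are near copies of each other, which bears on their densities, since those were made from uniquely mapping reads. The coding sequences of IMD3 and IMD2 are 88.9% identical, those of IMD4 and IMD3 82.1% and those of IMD4 and IMD2 79.0%. Windows of 30 bases, about a footprint's length, were taken over each coding sequence. Of these, 50.9% of IMD2, 27.2% of IMD3 and 11.4% of IMD4 occur elsewhere in the genome without a mismatch. A 30-base read from such a window cannot be placed uniquely. Windows of GUA1, AAH1, APT1 and HPT1 occur nowhere else. Most of the shared part of IMD2, 45.8% of its windows, matches chrI:227742-229278, where the reference used here annotates no gene. The windows of IMD4 match mainly IMD3, in 11.01% of them. With 1 mismatch allowed the shares were 80.7%, 47.2% and 20.2%.

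An identical and a dissimilar window of IMD4 and IMD3 show what separates them. The identical window is at chrXIII:162947-162976 minus in IMD4 and chrXII:1003346-1003375 plus in IMD3.
IMD4 and IMD3: ttaagactattagtcgaagcaggtttggat
The least similar aligned window, with the 14 differing bases in capitals, is at chrXIII:163276-163305 minus and chrXII:1003017-1003046 plus.
IMD4: aCggtaaGTgTCCAggTaaGttAGtTggGT
IMD3: aTggtaaAAgAAACggAaaAttGAtGggTA

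**Figure D1:**
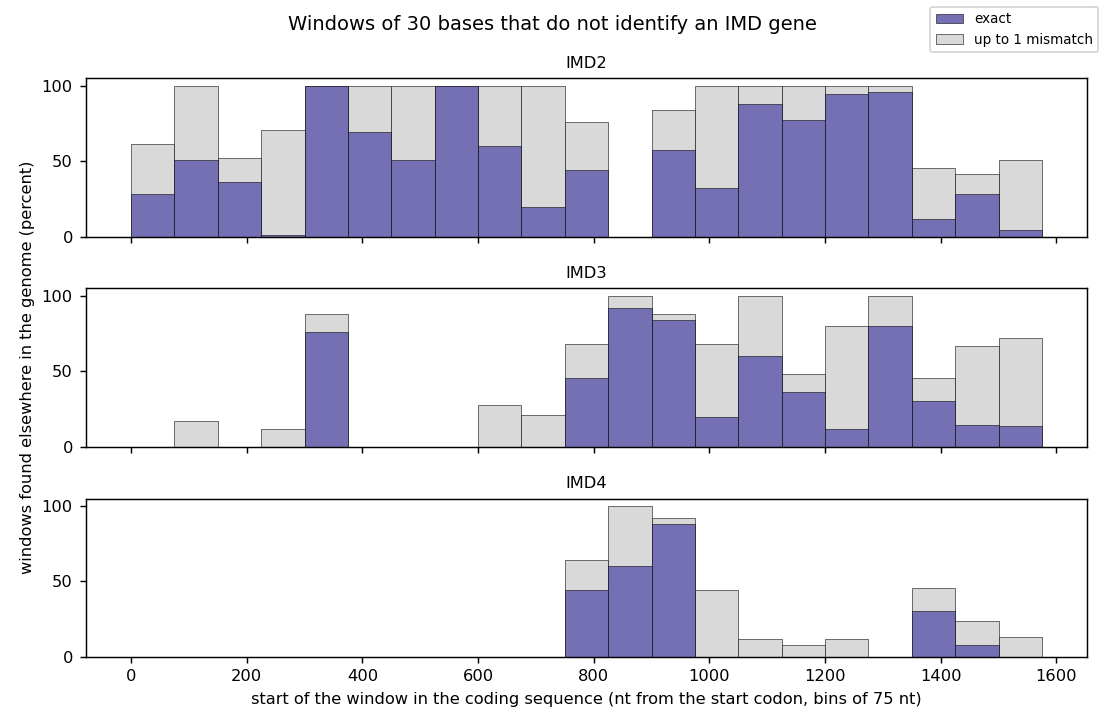
Percentage of 30-base windows of the IMD2, IMD3 and IMD4 coding sequences that occur elsewhere in the genome, exactly (purple) or with up to 1 mismatch (grey), by distance from the start codon in bins of 75 nt. Over the whole coding sequence 50.9% of IMD2, 27.2% of IMD3 and 11.4% of IMD4 windows are shared exactly.

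The leaders themselves are distinct: of the 30-base windows of the IMD3 and IMD4 leaders 0% occur elsewhere, and of the IMD2 leader 2.6%. In the 3′ UTRs the shares are 0% for IMD3 and IMD4 and 23.4% for IMD2. A density is the authors' ratio of reads per length in a leader, intron or 3′ UTR to the mean coverage of the coding sequence of the same gene and sample. Unplaceable coding windows can lower its denominator in the IMD genes. The windows have a footprint's length, so this effect may differ between ribosome profiling and RNA-seq. Their part in the IMD densities was not tested. The depth behind a density is not given in the files used here, so no counting interval can be stated.

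Mean levels place the members among the well-expressed genes of the RNA-seq samples, apart from IMD2. The authors' mean of normalised counts over the RNA-seq samples, per kb of coding sequence, was 9334 for APT1, 5535 for GUA1, 4337 for IMD4, 3079 for HPT1, 2118 for AAH1, 2087 for IMD3 and 169 for IMD2. These 6 larger values lie above those of at least 89.5% of the 5661 genes with both levels, and that of IMD2 above 47.6%. These are means over both strains and both temperatures, with no SD or n, and the estimation splits reads between near-identical IMD sequences. The authors' estimates also took in a short stretch on either side of each coding sequence, which the length used here leaves out. This weighs more in short genes such as APT1 and HPT1. Its part in the levels and in the ratios between assays was not tested.

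Footprints ranked the members differently. The authors' mean over the ribosome-profiling samples, per kb, was 3333 for IMD3, 3030 for GUA1, 2585 for APT1, 1350 for HPT1, 1031 for IMD4, 753 for AAH1 and 614 for IMD2. The ratio of the ribosome-profiling level to the RNA-seq level, set to 1 at the median gene because the assays were scaled separately, was 2.79 for IMD2 and 1.22 for IMD3. It was below 1 in the other 5 members: 0.419 for GUA1, 0.335 for HPT1, 0.272 for AAH1, 0.212 for APT1 and 0.182 for IMD4. This ratio is a pooled translation efficiency that includes the samples in which the fall in IMD4 and AAH1 led to the list. The low ratios of IMD4 and AAH1 are therefore tied to the choice of members and are given only as a description. Among the IMP dehydrogenase genes, then, IMD4 had the highest RNA-seq level and IMD3 the highest footprint level. The split of reads between near-identical IMD sequences enters the footprint levels too, so it limits this order and the IMD ratios. No test was made on these pooled means. In 29 other purine genes of a list used for comparison (IMP, AMP and ribose-phosphate synthesis and salvage) the median ratio was 0.598, the range 0.0967 to 2.77, and 24 of them lay below 1.

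**Figure D2:**
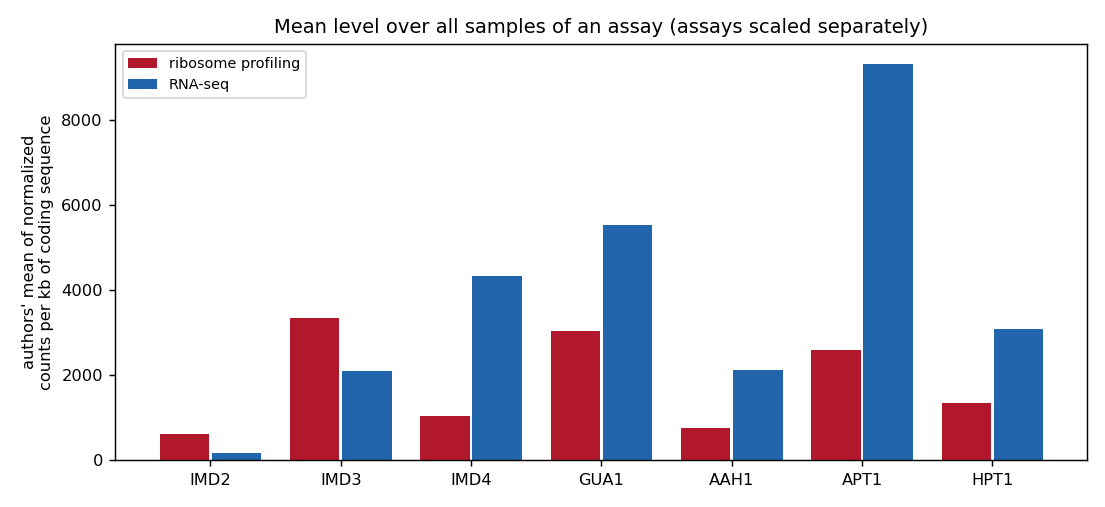
The authors' mean normalised counts per kb of coding sequence over the ribosome-profiling samples (left bar of each pair) and the RNA-seq samples (right bar) for the 7 members. The assays were scaled separately, so only the order within a colour can be read: IMD3 leads in ribosome profiling (3333) and APT1 in RNA-seq (9334).

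Leader densities in every sample exist for IMD3, GUA1 and APT1. They exist for 1218 of the 3933 genes listed for the 5′ UTR (31.0%). Shares and medians over complete genes cover this minority only. The lines of HPT1, AAH1, IMD4 and IMD2 hold 19, 19, 18 and 13 of 20 values, and blanks stand only at the end of a line. The authors removed outlying densities before plotting. The paper does not say whether the deposited values had passed that step, and its part in the blanks was not tested. Under the RNA-seq headings of cdc33-ts4-2 at 37°C, the median entry of lines with 13 to 16 values was 0.135 and that of complete lines 0.556. In the 3′ UTR table these medians were 0 and 0.839, so the headings of incomplete lines were not trusted. For these 4 genes a value is used only where every possible place in the order of samples gives the same assay, and for strain or group likewise, on the assumption that the order was kept.

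GUA1, the GMP synthase gene, had lower leader densities in ribosome profiling than in RNA-seq, as did most complete genes. Its 5′ UTR densities in ribosome profiling were 0.209 and 0.122 in cdc33-ts4-2 at 37°C, 0.0412 and 0.0351 in cdc33-ts4-2 at 25°C, 0.0316 and 0.0346 in CDC33 at 37°C and 0.00878 and 0.00889 in CDC33 at 25°C. In RNA-seq they were 0.246, 0.353 and 0.521 in cdc33-ts4-2 at 37°C, 0.385, 0.488 and 0.348 in cdc33-ts4-2 at 25°C, 0.328, 0.272 and 0.293 in CDC33 at 37°C and 0.319, 0.426 and 0.235 in CDC33 at 25°C. All 8 ribosome-profiling samples lay below all 12 RNA-seq samples. The mean over the 4 strain and temperature groups was 0.0614 in ribosome profiling and 0.351 in RNA-seq, a ratio of 0.175 (2-sided exact permutation test within groups, p = 0.0001, the smallest it can give; Benjamini-Hochberg adjusted p = 0.000191 over 1218 genes). Of those genes 71.6% were called lower in ribosome profiling and 11.1% higher, and 45.1% had no overlap of the assays in this direction, so the call itself is the usual one. The size of the ratio was ordinary too: 41.8% of complete genes with such a ratio had a lower one.

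The pairs of GUA1 ribosome-profiling samples did not overlap between temperatures in either strain, with 37°C higher, as in 62.4% of complete genes in cdc33-ts4-2 and 55.7% in CDC33. The ratio of group means at 37°C over 25°C was 4.33 in cdc33-ts4-2 and 3.75 in CDC33, against medians over complete genes of 2.12 and 1.89. These ratios exceeded those of 83.4% and 85.5% of complete genes. At 37°C the cdc33-ts4-2 mean was 5.00 times that of CDC33 and at 25°C 4.32 times, against medians of 1.72 and 1.52. The ratios 3.75 and 4.32 divide by low GUA1 values of CDC33 at 25°C, 0.00878 and 0.00889. In that group the sample medians over complete genes averaged 0.0443. The reads behind these low values are not known. In RNA-seq the ranges of the temperatures overlapped in both strains. No test was made on temperature or strain, since the members were chosen by these contrasts. An exact permutation test of 2 samples against 2 could not go below p = 0.3333.

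IMD3, an IMP dehydrogenase gene, had higher leader densities than GUA1 within each group of both assays. In ribosome profiling they were 0.604 and 0.478 in cdc33-ts4-2 at 37°C, 0.287 and 0.220 in cdc33-ts4-2 at 25°C, 0.239 and 0.356 in CDC33 at 37°C and 0.249 and 0.192 in CDC33 at 25°C. In RNA-seq they were 1.40, 1.22 and 1.48 in cdc33-ts4-2 at 37°C, 1.11, 1.28 and 1.54 in cdc33-ts4-2 at 25°C, 0.897, 0.775 and 0.757 in CDC33 at 37°C and 1.06, 1.35 and 1.33 in CDC33 at 25°C. The assays did not overlap, as in 45.1% of complete genes. Ribosome profiling averaged 0.328 and RNA-seq 1.18, a ratio of 0.277 (exact permutation test, p = 0.0001, adjusted p = 0.000191). Of complete genes 71.6% were called lower likewise. Among those with such a ratio 52.2% had a lower one, so IMD3 was near the middle.

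The IMD3 ribosome-profiling ratio of means at 37°C over 25°C was 2.13 in cdc33-ts4-2, whose pairs did not overlap, and 1.35 in CDC33, whose pairs did. These ratios exceeded those of 51.0% and 33.2% of complete genes, near the middle in cdc33-ts4-2. In RNA-seq the 3 CDC33 samples at 37°C lay below all other 9 samples, as in 4.19% of complete genes. Their ratio to the CDC33 samples at 25°C was 0.649 (median over complete genes 0.913, with 10.7% of genes below IMD3), and in cdc33-ts4-2 the ratio was 1.04 (median 1.12, with 39.6% below). The difference between these ratios was not tested. An RNA-seq density below or above 1 is itself a ratio to the coding sequence, so it does not show mRNA level.

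APT1 gave no usable RNA-seq leader density to compare with. Its ribosome-profiling densities were 0.211 and 0.423 in cdc33-ts4-2 at 37°C, 0.134 and 0.0943 in cdc33-ts4-2 at 25°C, 0.140 and 0.139 in CDC33 at 37°C and 0.0839 and 0.0476 in CDC33 at 25°C. It was listed at 0 in all 12 RNA-seq samples, and a 0 in a table without counts can be a failed estimate. Ribosome profiling averaged 0.159. The exact permutation test against RNA-seq values that are all 0 could only come out in this direction, so its call is not used and no fold is given. The listed leader of APT1 is 22 nt, and a read was assigned to a region only when enough of it lay there. Of complete genes with a listed leader under 30 nt, a limit chosen after the values were seen, 9 of 14 were at 0 in every RNA-seq sample, and of those with a longer listed leader 0 of 253 were. The part of leader length in the APT1 values was not tested further.

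In GUA1, IMD3 and APT1 alike, the pair of cdc33-ts4-2 samples at 37°C held the highest 2 of the 8 ribosome-profiling leader densities. The same was true of 47.1% of complete genes. Ratios of means at 37°C over 25°C for APT1 were 2.78 in cdc33-ts4-2 and 2.12 in CDC33, above those of 65.5% and 58.3% of complete genes.

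**Figure D3:**
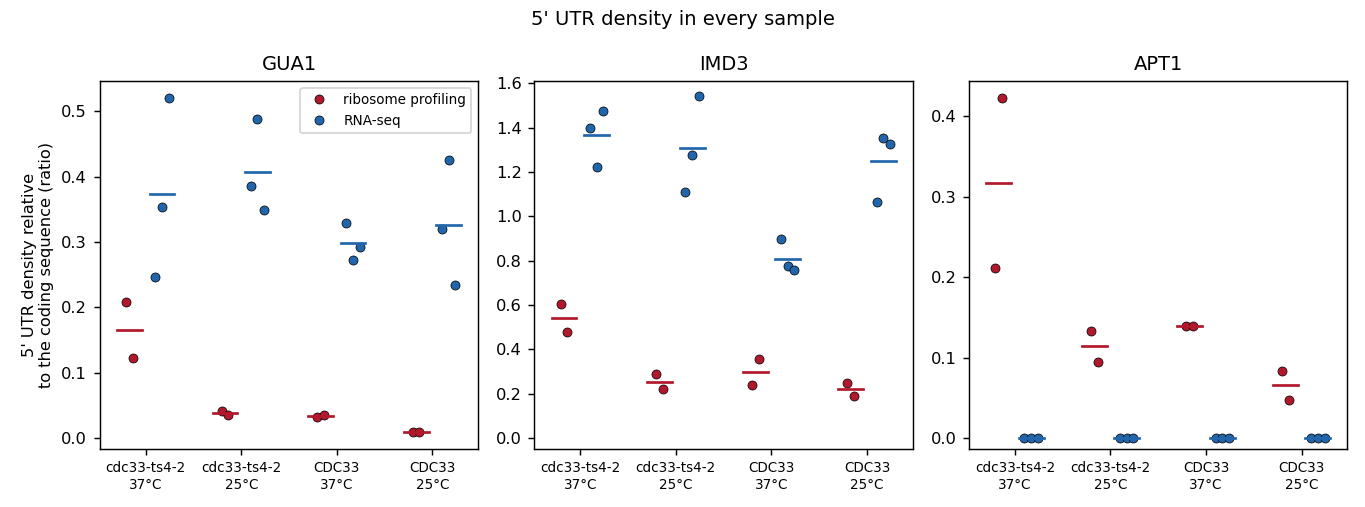
5′ UTR density relative to the coding sequence (ratio, linear axis) of GUA1, IMD3 and APT1 in every sample, with ribosome profiling (red) left of RNA-seq (blue) and a line at each group mean. In GUA1 and IMD3 all 8 ribosome-profiling points lie below all 12 RNA-seq points, and APT1 is listed at 0 in RNA-seq.

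The salvage genes AAH1 and HPT1 followed GUA1 in the direction between the assays. AAH1, adenine deaminase, had 7 values that are certainly ribosome profiling, between 0 and 0.0759, and 11 that are certainly RNA-seq, between 0.149 and 0.357. In ribosome profiling the value certain to be cdc33-ts4-2 at 37°C was listed at 0, as were those of cdc33-ts4-2 at 25°C and CDC33 at 37°C, and that of CDC33 at 25°C was 0.00816. No temperature difference is read from these, since a listed 0 can be a failed estimate.

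HPT1, the hypoxanthine-guanine phosphoribosyltransferase, had 7 ribosome-profiling values between 0.0277 and 0.192 and 11 RNA-seq values between 0.810 and 1.98. The ribosome-profiling value certain to be cdc33-ts4-2 at 37°C was 0.192, the highest of the 7, against 0.0392 for cdc33-ts4-2 at 25°C, 0.120 for CDC33 at 37°C and 0.0528 for CDC33 at 25°C. Lines with 19 values had no overlap in this direction between the certain values of the assays in 29.1% of 505 genes. No test was made on incomplete lines.

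IMD4 was the only member whose placeable leader densities overlapped between the assays, and ribosome profiling reached above RNA-seq. The part of its 4 listed uORFs in these densities was not tested. Of its certain ribosome-profiling values, 0.908 and 1.25 are certainly cdc33-ts4-2, 0.179 and 0.284 are certainly CDC33, and 0.254 and 0.522 are of uncertain strain. Its 10 certain RNA-seq values lay between 0.337 and 0.687. The cdc33-ts4-2 pair exceeded all 10 RNA-seq values, and the same was true of 12.4% of the 226 genes with 18 values. The temperature of neither sample can be placed. Coding footprints are the denominator of this density and also enter the translation efficiency whose fall in IMD4 led to the list. The high IMD4 values are therefore tied to the choice of members and are given only as a description. Among genes with 18 values, 26.1% had all certain ribosome-profiling values below all certain RNA-seq values, which IMD4 did not.

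IMD2 could be placed least. Its 5 certain RNA-seq leader densities ran between 1.51 and 3.87, the last being the highest certain value of any member, and its 1 certain ribosome-profiling value was 0.498. In the lines with 13 values, 28.7% of 129 genes had the certain ribosome-profiling value below all certain RNA-seq values. IMD2 is also the member with the largest share of unplaceable coding windows.

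**Figure D4:**
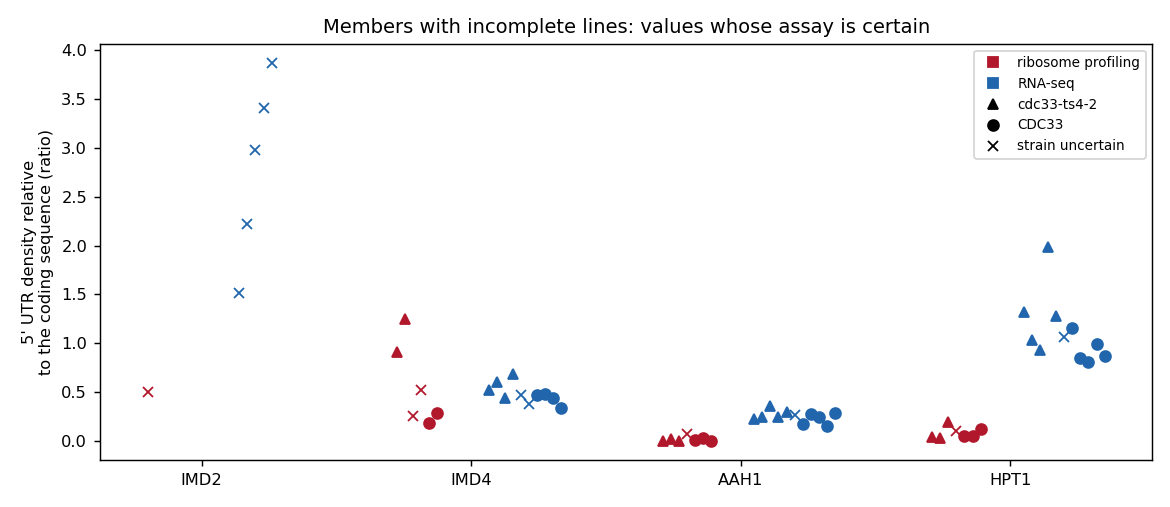
5′ UTR density relative to the coding sequence (ratio, linear axis) of the 4 members with incomplete lines, only values of certain assay: ribosome profiling (red) left of RNA-seq (blue). Triangles are cdc33-ts4-2, circles CDC33 and crosses samples of uncertain strain, and in IMD4 the 2 highest ribosome-profiling values, 0.908 and 1.25, are cdc33-ts4-2.

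The wider purine list gave no called gene in the opposite direction. Of 31 genes on the list 16 had complete 5′ UTR lines, of which 11 were called lower in ribosome profiling, 0 higher and 5 not called (AMD1, MEU1, HNT1, ADE8 and PRS1). MEU1 averaged 0 in RNA-seq, so it could not be called lower. Over all complete genes 71.6% were called lower and 11.1% higher, so the list's share lower is near the background. These include 37 genes (3.04%) listed at 0 in all RNA-seq samples, which could not be called lower either. In the 3′ UTR, 15 of 15 genes tested were lower.

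Few footprints lay in the 3′ UTRs of any member, as was usual for yeast genes here: 99.7% of 1208 genes were called lower in ribosome profiling and 98.7% had no overlap. In IMD3 ribosome profiling averaged 0.00634 and RNA-seq 0.265, a ratio of 0.0239. GUA1 averaged 0.00136 in ribosome profiling and 0.351 in RNA-seq, a ratio of 0.00389. APT1 averaged 0.000548 in ribosome profiling and 0.148 in RNA-seq, a ratio of 0.00371. Each had p = 0.0001 by the exact permutation test and an adjusted p of 0.000102.

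Within that low range IMD3 differed between samples. Its ribosome-profiling 3′ UTR densities were 0.0124 and 0.0238 in cdc33-ts4-2 at 37°C, 0.00209 and 0.00443 in cdc33-ts4-2 at 25°C, 0.00357 and 0.00229 in CDC33 at 37°C and 0.000801 and 0.00123 in CDC33 at 25°C. Both cdc33-ts4-2 samples at 37°C were the highest, as in 46% of complete genes. APT1 was listed at 0 in both of those samples, and GUA1 at 0 and 0.00474. Sample medians over the 1208 genes averaged 0.0136 in cdc33-ts4-2 at 37°C, 0.00102 in cdc33-ts4-2 at 25°C, 0.00275 in CDC33 at 37°C and 0.000679 in CDC33 at 25°C.

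The incomplete members had the same separation. Certain ribosome-profiling values ran up to 0.0315 in IMD4, 0.0129 in AAH1, 0.0437 in HPT1 and 0.0179 in IMD2, each below every certain RNA-seq value of its gene, the lowest of which was 0.411, in HPT1. The same held in 98% of genes with 19 values, 98% of those with 18 and 99.2% of those with 13. In HPT1 the highest, 0.0437, was the value of cdc33-ts4-2 at 37°C.

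**Figure D5:**
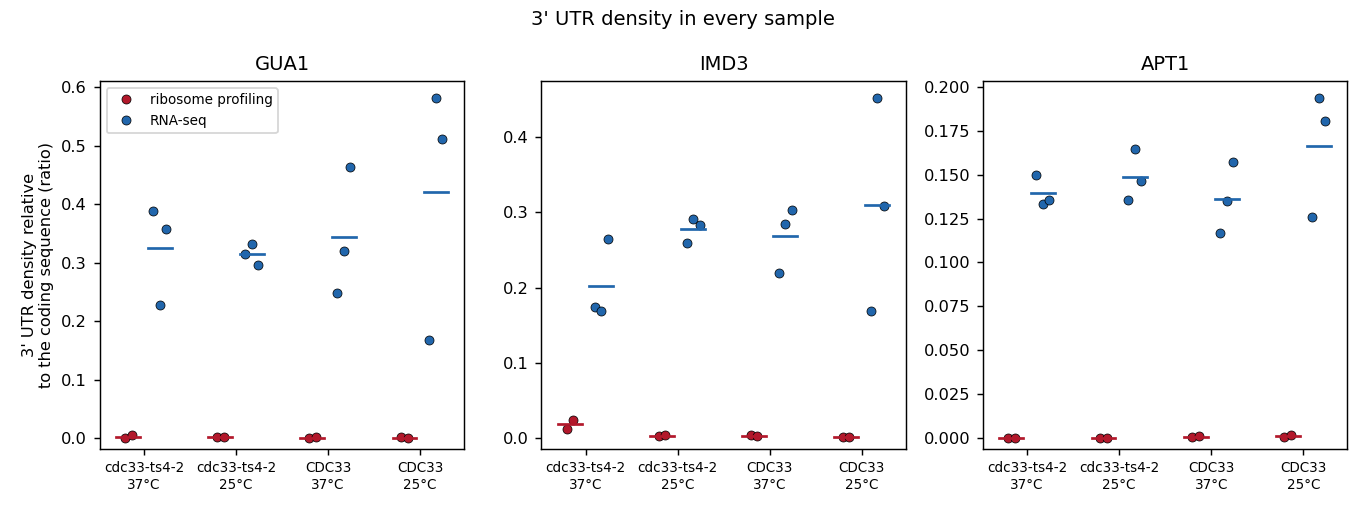
3′ UTR density relative to the coding sequence (ratio, linear axis) of GUA1, IMD3 and APT1 in every sample, with ribosome profiling (red) left of RNA-seq (blue) and a line at each group mean. Ribosome-profiling points stay at or below 0.0238 while RNA-seq points begin at 0.117.

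The single intron among the members belongs to IMD4, at chrXIII:163309-163716 on the minus strand (408 nt), and holds the small nucleolar RNA gene SNR54 (86 nt, chrXIII:163535-163620, same strand). Its certain intron densities in RNA-seq lay between 0.0678 and 0.198, above the medians of 0.0140 to 0.0245 over the 90 complete intron genes in the 4 RNA-seq groups. In ribosome profiling they lay between 0 and 0.0156, below all certain RNA-seq values. The same held in 37.5% of the 8 intron lines with 18 values, and 91.1% of the 90 complete intron genes were called lower in ribosome profiling. The authors removed reads that mapped to small nucleolar and other noncoding RNAs before mapping to the genome. Whether reads of SNR54 remained in this density was not tested.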

How the data were processed

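Ribosome profiling (8 samples) and RNA-seq (12) of both strains at 37°C and 25°C were grouped by the labels. Cells were treated with cycloheximide before harvest, which can alter where footprints lie. Densities are deposited as a ratio. The authors removed reads of noncoding RNAs (rRNA, tRNA and small nucleolar RNA among them) with HISAT2 2.2.1 and mapped the rest with STAR 2.7.10b. They kept uniquely mapping reads, counted them per region with featureCounts and divided by region length and by coding coverage. They filtered outliers before plotting, so high values can be missing if the deposited values were filtered too. Mean levels are a signal the authors deposited: Salmon 1.9.0 estimates, scaled within each assay by DESeq2 1.32.0 and averaged over all its samples. The deposited tables also hold the authors' fold changes, standard errors and p-values of their comparisons, including translation efficiency, and these columns were not used. Each density table has 4 columns headed as ribosome-profiling replicate 3, which hold 0 values. Metagene profiles were not used.

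Assays were compared by a 2-sided exact permutation of assay labels within strain and temperature (10000 arrangements), for genes with all 20 values, with Benjamini-Hochberg adjustment and a threshold of 0.05. The procedure was tested on simulated data. Placing values of incomplete lines by their order was devised after the files were seen. The members and lists were chosen with earlier results of these data known. All 7 members are named. The planned search for genes most like IMD4 and AAH1 was not made, since their lines are incomplete, and protein identity was replaced by that of the coding sequence. Sequences and positions are from RefSeq, build R64, whose coding lengths equal the authors' in 868 of 868 matched genes. Python 3.11.15 and NumPy 2.4.6 were used. Alternatives were log scales with pseudocounts of 0.01 and 0.001, each replicate number left out, a replicate block, a filter on zeros and other window lengths.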

Additional observations from a re-analysis of the deposited data

How the results depend on the processing

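The assay differences of IMD3 and GUA1 in both UTRs and of APT1 in the 3′ UTR kept their direction and their call in all 35 alternative fits (log scales, a filter on zeros, each replicate number left out, a replicate block), with a largest adjusted p of 0.0206 by the exact permutation test. The APT1 leader is left out of this count, since its RNA-seq values are all 0. In each counted result all 8 ribosome-profiling values lay below all 12 RNA-seq values. That separation fixed in advance the direction and the smallest possible p in every such fit. The alternatives therefore add no support to these differences. The numbers of called genes stayed within 1.5 times. The study ran RNA-seq in parallel on the same cells, but whether equal replicate numbers mark the same culture was not settled. Deviations of the same number correlated between the assays at -0.026 to 0.096 in the 5′ UTR. Such low correlations of variable ratios cannot exclude pairing. With the replicate block the leader differences were -0.809 for IMD3 and -0.291 for GUA1, with an adjusted p of 0.0125 each by the exact permutation test. Allowing 1 mismatch, chosen after seeing the data, moved the share of windows found elsewhere to 80.7% in IMD2, 47.2% in IMD3 and 20.2% in IMD4. Depth was unknown. Temperature and strain were described without a test, since these contrasts chose the members.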
